A study of Mus musculus with 2 samples.

Results

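Transfer RNA (tRNA) genes were examined for ChIP-seq peaks obtained with antibodies to ETS1 and to ETS2 in cultured mouse aortic endothelial cells. A peak was taken when its centre lay on chromosomes 1 to 19 within 1 kb of a gene that the RefSeq table of GRCm38.p6 (the primary chromosomes of mm10) classes as tRNA. This chose 257 of the 140851 deposited peaks: 136 of 77295 in the ETS1 list and 121 of 63556 in the ETS2 list. The cells were wild-type endothelial cells isolated from mouse aorta and grown in DMEM-F12 medium at 5% CO2, to which 20% fetal serum, heparin, an endothelial growth supplement (ECGS) and PS were added. Both groups shared all of this and differed only in the antibody, of which 10 µg was used per immunoprecipitation. Each group was 1 library, so no replicate error can be given for any value below. No age, strain or number of animals was given in the sources used here, and peak positions cannot check the labelled cell type.

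ETS1 and ETS2 are related transcription factors of the ETS family that recognise a GGAA core and act mostly at promoters and enhancers of genes read by RNA polymerase II. tRNA genes are short and are read by RNA polymerase III. Their promoter lies inside the gene, in an A box and a B box that the factor TFIIIC binds. TFIIIC then places TFIIIB just upstream, and TFIIIB recruits the polymerase. Many tRNA genes are near-identical copies lying in clusters. How reads that match several copies were assigned is not given in the sources used here, so counts over the gene bodies are uncertain.

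The table held 386 tRNA genes on chromosomes 1 to 19, of 70 to 107 bp, covering 20 amino acids and 48 anticodons. In a symbol such as n-TVcac2, the capital after T is the amino acid (V, valine), the small letters are the anticodon, and the number is the copy. Joining neighbours within 20 kb gave 134 clusters, of which 94 were single genes. The headers gave 143778022 tags for ETS1 and 134607908 for ETS2, with 1.89% and 1.53% of them in peaks. Peaks were 177 bp wide for ETS1 and 187 bp for ETS2. An input library was not analysed here. On chromosome 6 the ETS2 list had 105.9 peaks per Mb, the highest density of any autosome in either list, where the ETS1 list had 35.3. ETS1 density ran from 6.57 peaks per Mb on chromosome 4 to 58.5 on chromosome 11.

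RefSeq promoter windows of the same build held bases of 8 tRNA genes, so some tRNA genes can be shown beside the peaks. The 4 stretches printed here show how a tRNA gene, a gene start and the peaks lie together. Each is the 250 bases before an annotated transcript start, on the strand of that transcript, with the bases of the tRNA gene in capitals. The first is chr10:80249199-80249448 (plus strand), before a start of Ndufs7, a subunit of respiratory complex I, with 34 bases of n-TNgtt7 (asparagine). The second is chr7:79466274-79466523 (minus strand), before a start of Polg, the mitochondrial DNA polymerase, with all 73 bases of n-TRtcg5 (arginine). The third is chr13:23445972-23446221 (minus strand), before the lncRNA gene Gm46404, with all 73 bases of n-TVcac9 (valine). The last is chr7:120917528-120917777 (plus strand), before Polr3e, a subunit of RNA polymerase III, with 71 of the 82 bases of n-TLaag4 (leucine). The Gm46404 and Polr3e windows were chosen after their values were seen.
Ndufs7 and n-TNgtt7: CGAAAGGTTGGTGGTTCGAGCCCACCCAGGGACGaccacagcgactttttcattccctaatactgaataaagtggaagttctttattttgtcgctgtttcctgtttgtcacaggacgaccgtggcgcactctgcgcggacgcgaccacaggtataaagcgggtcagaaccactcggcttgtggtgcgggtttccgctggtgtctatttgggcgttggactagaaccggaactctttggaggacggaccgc
Polg and n-TRtcg5: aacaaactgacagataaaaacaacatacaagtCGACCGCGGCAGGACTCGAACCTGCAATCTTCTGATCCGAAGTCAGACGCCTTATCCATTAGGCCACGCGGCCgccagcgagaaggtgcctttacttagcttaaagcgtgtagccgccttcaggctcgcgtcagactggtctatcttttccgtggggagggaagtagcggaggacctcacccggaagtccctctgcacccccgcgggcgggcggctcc
Gm46404 and n-TVcac9: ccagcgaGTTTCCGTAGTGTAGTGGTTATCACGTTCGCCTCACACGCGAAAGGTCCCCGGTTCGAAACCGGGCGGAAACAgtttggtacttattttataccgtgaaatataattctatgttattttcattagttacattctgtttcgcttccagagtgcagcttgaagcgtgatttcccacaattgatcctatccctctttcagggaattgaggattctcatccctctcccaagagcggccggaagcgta
Polr3e and n-TLaag4: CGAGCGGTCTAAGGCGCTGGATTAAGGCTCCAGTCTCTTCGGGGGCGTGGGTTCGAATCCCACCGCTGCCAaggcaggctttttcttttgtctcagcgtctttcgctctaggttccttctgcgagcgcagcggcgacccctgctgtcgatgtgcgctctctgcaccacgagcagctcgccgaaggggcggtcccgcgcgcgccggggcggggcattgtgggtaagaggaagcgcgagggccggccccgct

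In the Ndufs7 window, the ETS1 peak (80249300 to 80249476) covered 149 of the 250 bases and the ETS2 peak (80249268 to 80249454) covered 181. Both centres lay beside the tRNA gene and not in it, 156 and 129 bp away. The tRNA gene itself lies at 80249159 to 80249232 on chromosome 10, inside the annotated span of Ndufs7. In the Polg window the ETS1 peak (79466165 to 79466341) covered the last 68 bases, next to the transcript start, with its centre 166 bp from n-TRtcg5. The ETS2 peak (79466045 to 79466231) lay just past that window, 281 bp from the tRNA gene. At n-TVcac9 the ETS1 peak (23445821 to 23445997) covered 26 bases at the start of Gm46404, with its centre 233 bp from the tRNA gene. The ETS2 peak there was at 23445691 to 23445877, 358 bp away. The Polr3e window had no peak. Its tRNA gene, n-TLaag4, had an ETS2 peak 779 bp away on the other side of the Polr3e start (120918284 to 120918470), and its nearest ETS1 peak was 28099 bp off.

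The letters GGTTCGA of the B box, searched on both strands, were in all 4 printed stretches and in 5 of the 8 that hold tRNA bases. Of the 3 without them, the one before Gm32420 holds all 72 bases of n-TAagc16, and the other two hold only a part of their tRNA gene. Of 31396 promoter stretches of the same length on chromosomes 1 to 19, 0.758% held these letters. Of 19 that a peak at a tRNA gene overlapped, 3 (15.8%) did. These 3 were the Ndufs7, Polg and Gm46404 stretches, which hold tRNA bases. The 19 were chosen for lying near tRNA genes, so the higher share follows from that choice and says nothing about the peaks. The letters CCGGAAG, an ETS site with the flanking bases that ETS1 is known to prefer, were searched likewise. They stood in the Polg and Gm46404 stretches, near the transcript start and outside the tRNA gene, and were absent from the Ndufs7 and Polr3e stretches. Of the same 19 promoter stretches, 2 (10.5%) held CCGGAAG, beside 7.01% of all stretches. The bare core GGAA was in 19 of 19 and in 93.3% of all, so it separates nothing.

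Peaks of both antibodies were denser around tRNA genes than on the chromosomes at large. The windows reaching 1 kb from tRNA genes covered 634.3 kb and held 136 ETS1 peaks, against 21.9 from the peak density of each chromosome, a ratio of 6.22 (95% Poisson interval 5.22 to 7.36). For ETS2 there were 121 against 21.3, a ratio of 5.67 (4.71 to 6.78). Without chromosomes 1 and 6 the ratios were 7.22 for ETS1 and 10.2 for ETS2, so the order of the lists turned. These and all other intervals cover counting error only, because neighbouring peaks of 1 library are not independent. Without bases within 1 kb of a protein-coding gene end, 100 ETS1 and 91 ETS2 peaks remained, with ratios of 5.83 (4.74 to 7.09) and 5.32 (4.29 to 6.54). The higher density was therefore measured away from protein-coding gene ends too.

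The density was higher within 1 kb of a tRNA gene than farther out in both lists, though not at every step. ETS1 peaks stood at 258.7 per Mb within 250 bp, 235.0 from 250 to 500 bp, 167.6 from 500 to 1000 bp and 109.1 from 1000 to 2500 bp. From 2500 to 5000 bp they stood at 69.2 per Mb, and from 5000 to 10000 bp at 73.3, still 2.14 times (1.75 to 2.58) the chromosome density. ETS2 peaks stood at 183.5 per Mb within 250 bp, 248.1 from 250 to 500 bp, 163.8 from 500 to 1000 bp and 62.8 from 1000 to 2500 bp. The ETS2 ratio was 1.45 (1.02 to 1.99) from 2500 to 5000 bp and 1.73 (1.34 to 2.18) from 5000 to 10000 bp. Both lists thus had most peaks per Mb in the nearest 500 bp, ETS2 in its farther part. Without bases near protein-coding gene ends, the ETS2 ratio from 2500 to 5000 bp was 1.44, with an interval of 0.971 to 2.05 that included 1. Just inside the 1 kb limit, from 900 to 1000 bp, lay 9 ETS1 and 10 ETS2 peaks, and just outside, from 1000 to 1100 bp, 9 and 8.

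**Figure D1:**
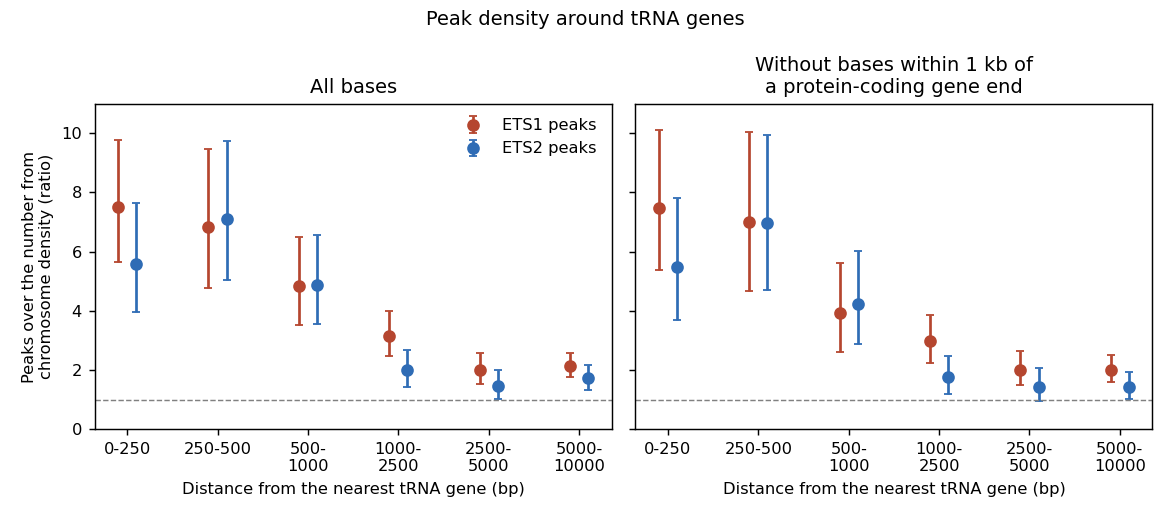
Number of peak centres over the number given by chromosome density (y axis, ratio) by distance from the nearest tRNA gene in bp (x axis), for ETS1 (red) and ETS2 (blue) peaks, with bars for 95% Poisson intervals. The ratio within 250 bp was 7.52 for ETS1 and 5.59 for ETS2, and beyond 2500 bp no ratio was above 2.14 in either list, beside the dashed line at 1.

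Nearly all peak centres lay beside the tRNA genes, which themselves cover only 28.8 kb of the 634.3 kb of windows. The median distance from a peak centre to the nearest base of the tRNA gene was 313.0 bp for ETS1 and 375.0 bp for ETS2. A centre fell inside a tRNA gene in 0 of 136 ETS1 and 2 of 121 ETS2 peaks, against 0.995 and 0.923 from chromosome density over the 28.8 kb of gene bodies. Between 100 and 200 bp from the gene there were 29 ETS1 peaks against 2.5 from density, a ratio of 11.6 (7.77 to 16.7), and 20 ETS2 peaks against 2.40, a ratio of 8.32 (5.08 to 12.9). The interval of the ETS1 ratio inside the genes reached from 0 to 3.71, below that of the 100 to 200 bp step. That step had the highest ETS1 ratio of the flank. Intervals of some other steps overlapped the one inside the genes, such as 2.37 to 9.08 from 400 to 500 bp. For ETS2 the interval inside the genes reached from 0.262 to 7.83 and overlapped that of the 100 to 200 bp step. Counting any base of the peak, 15 ETS1 and 12 ETS2 peaks touched a tRNA gene.

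Of the 386 tRNA genes, 145 (37.6%, 95% Wilson interval 32.9 to 42.5) had an ETS1 peak within 1 kb and 136 (35.2%, 30.6 to 40.1) an ETS2 peak. Both were found at 92 (23.8%), ETS1 alone at 53, ETS2 alone at 44 and neither at 197. The 92 genes are 63.4% of those with an ETS1 peak and 67.6% of those with an ETS2 peak. Neighbouring tRNA genes can share a peak, so genes are not independent. At most 3 peaks of a list lay at a tRNA gene, and n-TVcac2 on chromosome 13 reached this number in both lists.

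Closeness to a protein-coding gene went with having a peak. Of 47 tRNA genes within 1 kb of a protein-coding gene end, 34 (72.3%, 58.2 to 83.1) had an ETS1 and 35 (74.5%, 60.5 to 84.7) an ETS2 peak. At 1 to 10 kb the shares were 40.3% (32.4 to 48.8) and 39.6% (31.7 to 48.0) of 134 genes. Beyond 10 kb they were 27.8% (22.1 to 34.3) and 23.4% (18.1 to 29.7) of 205 genes. The intervals of the nearest class lie above those of both others in each list. Among the 20558 protein-coding genes, an end lay within 1 kb of a peak in 41.8% for ETS1, in 42.5% for ETS2 and in 30.5% for both lists.

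Other small RNA genes at the same distances had a peak less often in these lists. Beyond 10 kb from protein-coding gene ends, an ETS1 peak lay at 9.34% (7.23 to 12.0) of 578 miRNA, 6.17% (4.79 to 7.93) of 907 snoRNA and 3.90% (2.67 to 5.65) of 667 snRNA genes. The ETS2 shares there were 7.44% (5.57 to 9.87), 4.52% (3.35 to 6.07) and 3.15% (2.07 to 4.77). All these intervals lie below those of tRNA genes at that distance, 22.1 to 34.3 and 18.1 to 29.7. Many of the annotated snRNA and snoRNA genes are repeated copies, and expression of none of these classes was measured here. No test of these differences was made.

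**Figure D2:**
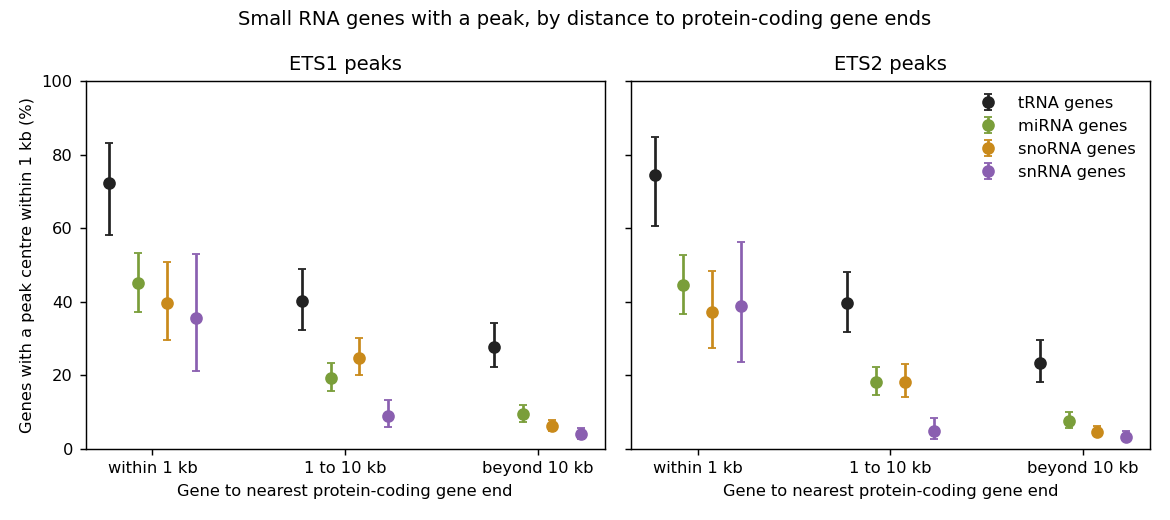
Percent of tRNA, miRNA, snoRNA and snRNA genes with a peak centre within 1 kb (y axis) by distance of the gene to the nearest protein-coding gene end (x axis), ETS1 left and ETS2 right, with 95% Wilson intervals. tRNA genes have the highest share in each class, from 72.3% and 74.5% within 1 kb to 27.8% and 23.4% beyond 10 kb.

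A peak at a tRNA gene often had a partner in the other list. Of the 136 ETS1 peaks, 47 (34.6%, 27.1 to 42.9) overlapped an ETS2 peak by at least 1 bp, beside 15.9% of all ETS1 peaks on these chromosomes. Of the 121 ETS2 peaks, 49 (40.5%, 32.2 to 49.4) overlapped an ETS1 peak, beside 19.4% of all ETS2 peaks. The 47 overlapping pairs at tRNA genes had centres 3 to 175 bp apart, with a median of 55 bp. In 46 of 47 both centres lay on the same side of the tRNA gene. Pairs were chosen by overlap of peaks 177 and 187 bp wide, so close centres, mostly on 1 side, follow largely from that choice. With no input library analysed, sites that gather reads under any antibody cannot be told apart from sites that both factors occupy.

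Protein-coding gene ends were near some of these peaks but not most. Within 1 kb of such an end lay 36 ETS1 peaks (26.5%, 19.8 to 34.5) and 30 ETS2 peaks (24.8%, 17.95 to 33.2), beside 14.4% and 17.3% of all peaks. Of these, 19 ETS1 and 18 ETS2 peaks lay nearer to the protein-coding gene end than to the tRNA gene. Beyond 10 kb lay 51 ETS1 (37.5%) and 41 ETS2 (33.9%) peaks. Overlap with the other list followed this distance. For ETS1 it was 50% within 1 kb, 38.8% at 1 to 10 kb and 19.6% beyond, beside 36.6%, 14.5% and 11.4% of all ETS1 peaks in those classes. For ETS2 it was 63.3%, 40.0% and 24.4%, beside 36.9%, 19.4% and 13.98%. At 1 to 10 kb the intervals of the members, 26.4 to 52.8 and 27.6 to 53.8, lay above the share of all peaks. Beyond 10 kb they were 11.02 to 32.5 and 13.8 to 39.3 and included it, as did 34.5 to 65.5 for ETS1 within 1 kb.

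**Figure D3:**
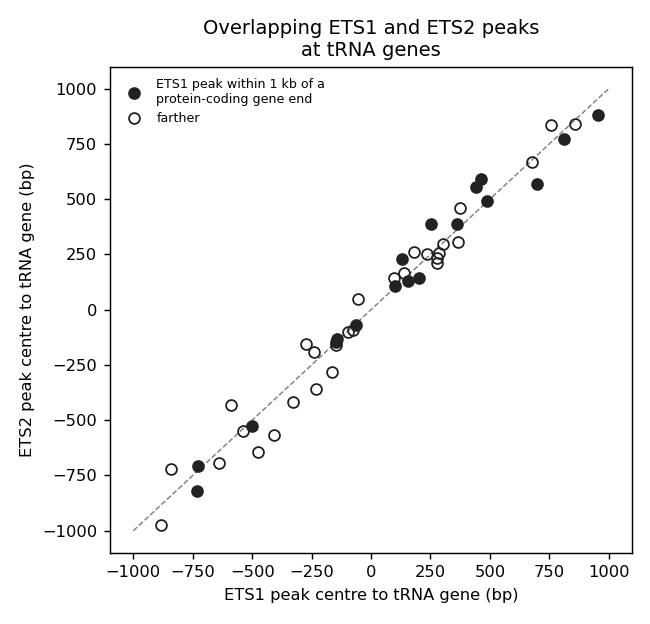
Signed distance in bp from the nearest tRNA gene to the centre of the ETS1 peak (x axis) and of the overlapping ETS2 peak (y axis) for 47 pairs, positive toward higher coordinates; filled points have the ETS1 peak within 1 kb of a protein-coding gene end (18 pairs). The points follow the dashed line of equal distance, and 46 of 47 have both peaks on the same side. Pairs were chosen by overlap, which by itself keeps the points near that line.

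The pairs closest to a tRNA gene lay on chromosomes 13, 11, 1 and 10. At n-TVcac2 (chromosome 13, 23412077 to 23412149) the ETS1 peak (23411936 to 23412112) and the ETS2 peak (23412106 to 23412292) sat on opposite sides, 53 and 50 bp from the gene, and overlapped by their edges. This is the pair of the 47 that was not on 1 side. At n-TRcct3 (chromosome 11, 115413304 to 115413376), an arginine tRNA gene, the peaks were at 115413153 to 115413329 and 115413141 to 115413327. They lay 567 and 560 bp from an end of Mrpl58, which encodes a mitochondrial ribosomal protein. The next gene, n-TRtcg4, carried another pair 74 and 90 bp away. At n-TGtcc1 (chromosome 1, 171064699 to 171064770), a glycine tRNA gene, the centres were 3 bp apart at 97 and 100 bp from the gene. At n-TWcca2 (chromosome 10, 91181412 to 91181483), a tryptophan tRNA gene, they were 103 and 106 bp away and 166 and 163 bp from an end of Tmpo, which encodes a nuclear lamina protein.

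The remaining pairs near tRNA genes included n-TQttg6, n-TSaga4, n-TCgca54 and n-TNgtt8 on chromosome 11, with summed distances of 237 to 347 bp. n-TSaga4 lies by Ctc1, a telomere maintenance gene, and n-TNgtt8 by Pcgf2, a Polycomb gene. On chromosome 17, n-TKctt14 carried a pair 147 and 159 bp away. n-TPcgg2 on chromosome 1, n-TStga3 on chromosome 10, n-TAagc7 and n-TAagc17 on chromosome 13 and n-TRtct2 on chromosome 3 had summed distances of 301 to 444 bp. At n-TWcca5 on chromosome 11 and n-TSgct5 on chromosome 13 they were 486 and 489 bp. Of the 47 pairs, 18 had the ETS1 peak within 1 kb of a protein-coding gene end and 10 beyond 10 kb. The latter included n-TPtgg7 on chromosome 3, with an ETS1 peak 18116 bp away from Elf2, an ETS factor gene, and n-TFgaa5 on chromosome 14.

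In all, 32 protein-coding genes were the nearest gene to a peak within 1 kb of both an end of theirs and a tRNA gene. Of these, 25 were so in both lists. The 32 were chosen for having a peak, and most genes with a peak of 1 list had the other too. Across all 20558 protein-coding genes, ETS1 peaks came that close to 8591, ETS2 peaks to 8738 and peaks of both lists to 6271. So 25 of 32 does not by itself mark these genes out. The 25 included Ilf2, an RNA-binding protein gene on chromosome 3, and Tia1, a stress granule protein gene on chromosome 6. Psma3, a proteasome subunit gene on chromosome 12, and Lta4h, a leukotriene enzyme gene on chromosome 10, were among them. Fbxo31, Agbl5, Lasp1, Mettl26 and Trim41 also had both. Elf1, an ETS factor gene on chromosome 14, had an ETS1 peak (79480851 to 79481027) and an ETS2 peak (79480866 to 79481052) whose centres were 235 and 215 bp from its end. Those centres were 729 and 709 bp from the glutamate tRNA gene n-TEttc4 (79481668 to 79481739), which had a further ETS2 peak 37 bp away, 508 bp from an end of Wbp4, a splicing factor gene. The histone gene H4c8 on chromosome 13 had both peaks, 74 and 56 bp from an end and 699 and 569 bp from n-TMcat9. It was the only histone gene with a tRNA-linked peak at its end. Several tRNA clusters of chromosome 13 lie among histone genes, but not this close to their ends. Where another histone gene was the nearest protein-coding gene, the closest tRNA gene was n-TMcat7, 4646 bp from H2bc13. No peak could lie within 1 kb of both there, so this says nothing about peaks at other histone genes.

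The tRNA genes of single-list peaks were spread over the genome. Closest to an ETS1 peak without an ETS2 peak within 1 kb were n-TRtct3 on chromosome 13 (6 bp), n-TNgtt5 and n-TYgta2 on chromosome 3 (16 and 26 bp), n-TRcct2 on chromosome 17 (35 bp) and n-TWcca7 on chromosome 11 (104 bp). The ETS2 list had peaks 1567 and 1786 bp from n-TRcct2 and n-TWcca7, just beyond the window. Closest to an ETS2 peak alone were n-TRccg1 on chromosome 11 (30 bp), n-TAtgc11 on chromosome 13 (43 bp), n-TNgtt9 on chromosome 2 (44 bp), n-TTagt9 on chromosome 7 (60 bp) and n-TGgcc9 on chromosome 3 (87 bp). The nearest ETS1 peaks of n-TRccg1 and n-TTagt9 lay 1726 and 1236 bp away. A difference between the lists could not be tested with 1 library each.

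Single tRNA genes and small groups had peaks more often per gene than the largest clusters. An ETS1 peak lay at 37 of 94 single genes (39.4%), 22 of 30 genes in pairs (73.3%, 55.6 to 85.8), 55 of 102 in clusters of 3 to 9 (53.9%, 44.3 to 63.3) and 31 of 160 in clusters of 10 or more (19.4%, 14 to 26.2). The ETS2 numbers were 45 (47.9%), 18 (60%), 39 (38.2%) and 34 (21.3%, 15.6 to 28.2). All 8 clusters of 10 or more genes nevertheless had a peak of both lists. One of these 8, on chromosome 6, held 39 cysteine genes, of which 2 had an ETS1 and 2 an ETS2 peak. Clusters also differ in their distance to protein-coding gene ends. The shares by cluster size were not split by that distance, so the 2 traits cannot be told apart here. Over all 134 clusters, 71 had an ETS1 peak, 74 an ETS2 peak, 59 both and 48 neither.

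The cluster with most peaks was on chromosome 13 from 23397060 to 23467165, with 22 tRNA genes for 10 amino acids, 9 ETS1 and 8 ETS2 peaks and 6 overlapping pairs. In it, n-TVaac2 (23401073 to 23401145) had an ETS1 peak at 23401359 to 23401535 and an ETS2 peak at 23401348 to 23401534. These were at places 2780 and 910 in the deposited order. A run of tRNA genes from n-TVcac2 to n-TAagc7 held 3 ETS1 and 3 ETS2 peaks that overlapped pairwise. The protein-coding genes Abt1 and Btn1a1 lie within or beside this cluster, and 0 of its tRNA genes were within 1 kb of an end of either.

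Several other clusters stood out by number. On chromosome 11, 8 tRNA genes from 48818542 to 48857055 had 5 ETS1 and 5 ETS2 peaks with 4 overlapping pairs. They begin beside Trim41 and run across Trim7, so that tRNA genes lie on both sides of it. On chromosome 3, 19 genes from 96382911 to 96501518 had 7 ETS1 and 3 ETS2 peaks with 1 pair. Its neighbour from 96322074 to 96351237, with 6 genes, had 8 ETS1 peaks and 0 ETS2 peaks. On chromosome 11 from 69037003 to 69041897, 7 genes for 7 amino acids beside Ctc1 had 5 ETS1 and 3 ETS2 peaks. Clusters at 21200204 to 21279768 and 23270421 to 23317538 on chromosome 13 had 3 and 3 peaks each, and 7 genes at 23533962 to 23550335 on chromosome 17 had 4 and 2. On chromosome 1 from 171033942 to 171111515, 25 genes had 1 ETS1 and 4 ETS2 peaks. The Ndufs7 pair of tRNA genes, n-TFgaa3 and n-TNgtt7, had 3 and 2.

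**Figure D4:**
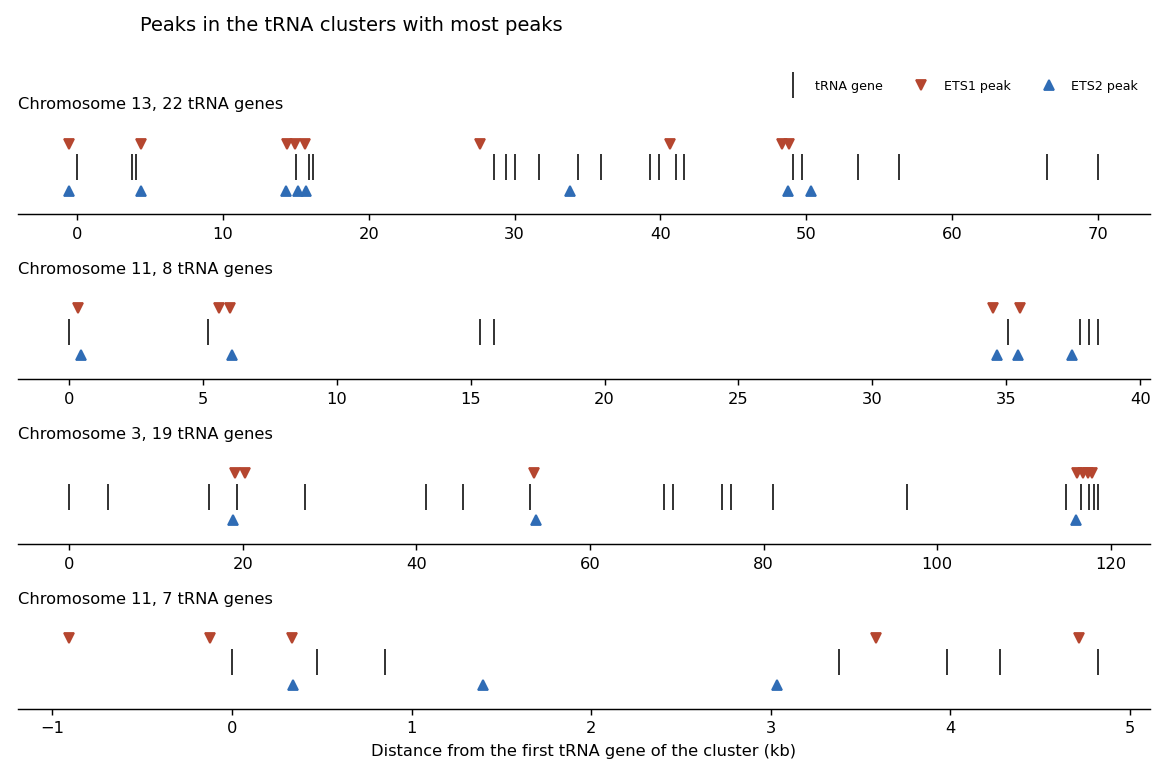
Positions of tRNA genes (ticks), ETS1 peaks (red, above) and ETS2 peaks (blue, below) in 4 of the clusters with most peaks among those of 6 or more tRNA genes, in kb from the first tRNA gene of the cluster (x axis). In the chromosome 13 cluster of 22 genes the 9 ETS1 and 8 ETS2 peaks gather around a few tRNA genes, and other tRNA genes have none.

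Cysteine tRNA genes on chromosome 6 were the main exception. A cluster of 39 cysteine genes from 48186318 to 48363603 had 2 ETS1 and 2 ETS2 peaks. A cluster of 9 cysteine genes beside it, from 48133937 to 48164172, had 0 of either, as did 5 genes on chromosome 5 from 125404250 to 125409543 and the pairs that begin with n-TAcgc8 on chromosome 2 and n-TGgcc7 on chromosome 13. Chromosome 6 had 4 ETS1 peaks at tRNA genes against 3.40 from its density, a ratio of 1.18 (0.321 to 3.01). It had 7 ETS2 peaks against 10.2, a ratio of 0.687 (0.276 to 1.42). Both intervals included 1. These ratios cover all tRNA genes of chromosome 6, and in both lists they include peaks at n-TRcct1 (arginine) and n-TGccc4 (glycine). The ETS2 number from density rests on the 105.9 peaks per Mb of this chromosome, so its ratio is not a measure of cysteine genes alone. On the 4 other chromosomes with at least 35 tRNA genes, the ETS1 ratio ran from 3.90 on chromosome 13 to 10.3 on chromosome 3. The ETS2 ratio ran there from 8.93 on chromosome 3 to 11.5 on chromosome 11.

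**Figure D5:**
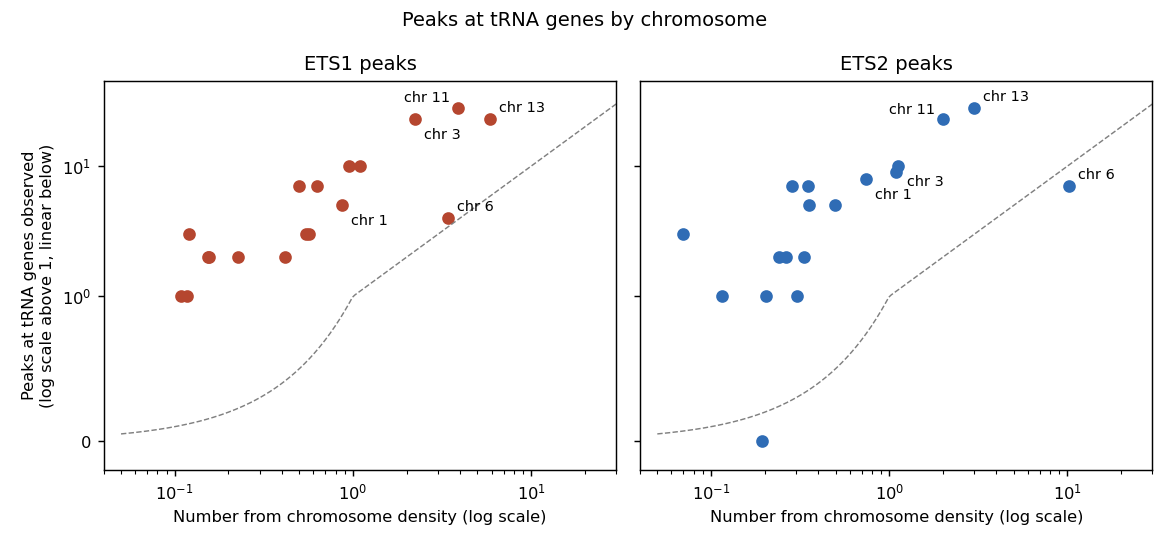
Peaks at tRNA genes observed on each chromosome (y axis, log scale above 1 and linear below) against the number from that chromosome's peak density (x axis, log scale), ETS1 left and ETS2 right; the dashed line marks equality and chromosomes with at least 35 tRNA genes are named. Chromosome 6 is near the line for ETS1 (4 against 3.40) and below it for ETS2 (7 against 10.2), while chromosomes 1, 3, 11 and 13 are above it. The interval of the chromosome 6 ratio included 1 in both lists (0.276 to 1.42 for ETS2).

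By amino acid, arginine and proline tRNA genes had peaks most often. An ETS1 peak lay at 16 of 23 arginine genes (69.6%) and 10 of 15 proline genes (66.7%), and an ETS2 peak at 13 (56.5%) and 10 (66.7%). Cysteine genes had the lowest ETS1 share, 6 of 57 (10.5%), with 7 (12.3%) for ETS2. Tyrosine genes had 4 of 10 for ETS1 and 0 of 10 for ETS2, and histidine genes 5 of 11 and 1 of 11. Genes of 1 amino acid share clusters and hence peaks, so these shares describe loci more than amino acids.

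Within the deposited order, whose basis no column of the files gives, ETS1 peaks at tRNA genes stood early. Their median place was at 34.1% of the list, beside 50.2% for all ETS1 peaks, and 95 of 136 (69.9%, 61.7 to 76.9) were in the first 50%. ETS2 peaks at tRNA genes had a median place of 45.5%, and 64 of 121 (52.9%, 44.0 to 61.6) were in the first 50%. The earliest ETS1 members, at places 240 and 2330, flanked the lysine tRNA genes n-TKctt26 and n-TKctt25. They lie in a segment of chromosome 1 crowded with ETS1 peaks, and without that segment 134 ETS1 members were counted. Next came peaks at n-THgtg5, n-TVaac2 and n-TGtcc1. The earliest ETS2 members were at n-TNgtt7 by Ndufs7 (place 415), n-TVaac2 (910), n-TGccc4 by Tia1 (965), n-TStga3 (1309) and n-TAagc7 (1575).

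The genes that make and mature tRNAs are themselves protein-coding, and most had a peak within 1 kb of an end. In a list of 64 such genes, an ETS1 peak lay within that distance of 53 (82.8%, 71.8 to 90.1) and an ETS2 peak of 49 (76.6%, 64.9 to 85.2), with 42 in both lists, 11 in ETS1 alone, 7 in ETS2 alone and 4 in neither. The shares over all protein-coding genes, given above, were 41.8%, 42.5% and, for both lists, 30.5%. No test was made, and the list was not matched to other genes on activity.

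Among 13 subunits of RNA polymerase III, 9 had both peaks. They included Polr3b (98 and 110 bp from an end), Polr3c (133 and 148 bp), Polr3d, Polr3f and Polr3g. Polr3a, the largest subunit, had an ETS1 peak 13 bp from an end, and Polr3e had the ETS2 peak described above. All 6 subunits of TFIIIC, which reads the A and B boxes, had both, for example Gtf3c1 (130 and 215 bp) and Gtf3c3 (69 and 73 bp). Of 4 TFIIIB genes, all had an ETS1 peak, and Brf1 also had an ETS2 peak. The nearest ETS2 peaks of Brf2, Bdp1 and Tbp lay 31947, 2109 and 1849 bp from an end. Maf1, which represses the polymerase, had both (392 and 298 bp). Ssb, which encodes the La protein that binds new transcripts, and Gtf3a, the 5S factor gene, had an ETS2 peak only, 98 and 197 bp from an end. Of 5 genes of SNAPc, which serves snRNA promoters, 4 had an ETS1 and 4 an ETS2 peak, and 3 had both.

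Maturation genes had peaks at similar shares. Of 13 genes of tRNA end processing, 9 had an ETS1 and 9 an ETS2 peak. Elac2, which trims the tail, and Trnt1, which adds CCA, had both, while Pop4, Rpp30 and Rpp40 of ribonuclease P had neither. Of 6 splicing genes, 5 had an ETS1 and 4 an ETS2 peak. Rtcb, the tRNA ligase, had both, and Tsen15 had an ETS2 peak only. Of 14 modification and export genes, 13 had an ETS1 and 12 an ETS2 peak. They included the methyltransferase genes Nsun2 (150 and 101 bp), Trmt6 (10 and 213 bp) and Trmt5 (4 and 51 bp) and the export receptor gene Xpot (307 and 62 bp). Polr1d was the remaining gene of the 64 with neither.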

How the data were processed

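Peaks of 2 ChIP-seq libraries, 1 per antibody, were read from the deposited BED files. The score column deposited by the authors is the constant 1 and was not used. Per the file headers, peaks were called with HOMER findPeaks in factor style on mm10 tag directories with no control directory, at a false discovery rate of 0.01 and a threshold of 30 tags. The fold, local and clonal filters were set to 0, and local filtering removed 0 peaks, so peaks were kept without regard to enrichment over their surroundings. CASAVA 1.8, Bowtie2 and the builds mm9 and mm10 are named in the submitters' processing notes.

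Gene positions came from the RefSeq table of GRCm38.p6. Of 391 tRNA genes listed on chromosomes 1 to 19, 5 whose rows returned to low coordinates lie on scaffolds and were left out, as were 333 gene rows in all. Distance ran from the peak centre to the nearest base of the tRNA gene, or to either end of a protein-coding gene, since strand is not in the table. The number from density used each chromosome's peaks, the length of the windows and the span between its outermost genes or peaks. No test was made, because each antibody had 1 library. Shares have 95% Wilson intervals and ratios 95% exact Poisson intervals.

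The members and lists were chosen with earlier results of these data known. Named were the 10 clusters with most peaks, 20 tRNA genes with overlapping pairs by summed distance, 5 tRNA genes nearest a peak of 1 list only, the clusters of most tRNA genes with no peak (2 were tied for the third place and both are named), protein-coding genes at shared peaks, the first 5 members of each list in the deposited order, and the first genes of each class in the list of 64. Others, among them n-TPtgg7, n-TVcac9, n-TTcgt5, amino acids, further genes of the list of 64 and the fine distance steps, were chosen after their values were seen. Promoter stretches came from the RefSeq promoter table of the same build, which held 0 of the tRNA symbols as entries of their own. The code was tested on simulated peaks and run in Python 3.11.15 with pandas 2.3.3, scipy 1.17.1 and statsmodels 0.14.6.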

Additional observations from a re-analysis of the deposited data

How the results depend on the processing

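Of 52 alternative values, 26 stayed within 1.5 times the count or within the counting interval, and 26 moved further. With centres within 250 bp there were 55 ETS1 and 39 ETS2 peaks, at 15.0% and 10.9% of tRNA genes. Within 500 bp there were 77 ETS2 peaks, and 25.6% (ETS1) and 22.5% (ETS2) of tRNA genes had a peak. Within 2500 bp there were 209 ETS1 peaks, and 48.96% of tRNA genes had a peak in either list taken alone. The window's own size sets these numbers. In the first 50% of the deposited order, 64 ETS2 peaks remained, and 29.3% and 20.2% of tRNA genes had a peak. Without chromosomes 1 and 6, 44.9% of tRNA genes had an ETS1 peak, and the ETS2 ratio to chromosome density was 10.2. Without tRNA genes within 1 kb of a protein-coding gene end, the shares of tRNA genes were 32.7% and 29.8%. Requiring overlap of 50% of the peak gave 25% shared for ETS1 and 27.3% for ETS2, and centres within 500 bp gave 53.7% and 56.2%. At 500 bp from a protein-coding gene end lay 16.2% and 14.9% of members, and at 2500 bp 37.5% and 34.7%. Joining tRNA genes within 5 kb gave an ETS2 peak at 45.9% of clusters. The ratio to chromosome density stayed above 5 in both lists under each alternative run for it. The segment of chromosome 1 and the cysteine genes were left out as alternatives chosen after seeing the data, and neither moved a value that far. Tags at single peaks were not analysed here, and a tRNA gene without a peak may lie under the threshold of 30 tags. No paired analysis was possible because no result comes from a test.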

Other observations

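Outside chromosomes 1 to 19, 17 tRNA genes lie on chromosome X, and 0 of its 95 ETS1 and 0 of its 40 ETS2 peaks lay within 1 kb of them. The number from the peak density of chromosome X was not computed. With so few peaks on the whole chromosome, the 0 cannot be read as a lack of peaks at its tRNA genes. Of the 22 mitochondrial tRNA genes, which punctuate the mitochondrial genome and are read by a different polymerase, 18 lay within 1 kb of a peak in each list. Of the mitochondrial peaks, 12 of 13 ETS1 and 12 of 12 ETS2 peaks lay that close to a tRNA gene. With tRNA genes spread over that genome, most peaks on it could lie this close wherever they fell. The share of its bases within 1 kb of a tRNA gene was not measured. Among tRNA genes on chromosomes 1 to 19, 33 lie inside an annotated protein-coding gene, of which 14 had an ETS1 and 12 an ETS2 peak, beside 131 and 124 of the 353 outside. At n-TTcgt5, a single threonine tRNA gene on chromosome 16, 2 ETS1 and 3 ETS2 peaks lay within 1 kb, and none of them overlapped a peak of the other list at the gene.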
